A study of Mus musculus with 47 samples.

Results

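The change in gene expression over the 4 h from late night to lights on was examined in satellite cells, the stem cells that regenerate muscle, of mice on a control diet. The comparison sets the 4 arrays titled control diet T0 against the 4 titled control diet T20, which is 8 of the 47 arrays of the series, and each difference is given as ZT0 minus ZT20. Zeitgeber time (ZT) counts hours from lights on, so ZT0 is the start of the rest phase of the mouse and ZT20 lies in the late active phase. All 8 mice were wild-type C57B6/J females of 15 weeks. They had been fed the control diet freely for 7 weeks, from 8 weeks of age, and 1 array was run per mouse. The arm used for comparison was the 8 high-fat mice of the same 2 times, alike in strain, sex, genotype, age and length of feeding. Within a diet all mice of a time were killed on a single day, so time of day and collection day cannot be told apart in either arm. Both diets were collected on the same day for each time, so the difference between diets in the change lies within days.

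The cells were measured in bulk. Markers of satellite cells were high on all 8 arrays. Pax7, the transcription factor that defines these cells, lay between 10.71 and 10.87 on the log2 scale at ZT20 and between 10.64 and 10.94 at ZT0, and Myf5, a myogenic factor of satellite cells, between 10.55 and 10.85 and between 10.47 and 10.64. Ptprc, the pan-leukocyte marker, lay between 3.77 and 4.59, and Pdgfra, which marks fibro-adipogenic cells, between 4.25 and 4.53, both under the limit of 5.80 below which genes were not tested. Other fibroblast genes were well above it: Dcn (decorin) lay between 9.30 and 11.32 and Col1a1, a collagen chain, between 8.17 and 10.07 on the same arrays. Of the 28 satellite cell identity and quiescence genes tested, Spry1, a brake on growth factor signalling, was lower at ZT0 by 0.40 ± 0.11 (SE) on the log2 scale, and none passed the limma threshold as higher (1 higher and 3 lower at an unadjusted p under 0.05). That 1 call is 3.57% of the list, which is near the 4.21% called lower among all genes. Spry1 lost its call without control ZT20 replicate 2 or 3 or control ZT0 replicate 4. Of 14 myogenic commitment and differentiation genes tested, 1 passed as higher and 2 as lower (7.14% and 14.3%, against 4.37% and 4.21% of all genes). Their median was -0.07, with 4 differences above 0 and 10 below. Myod1, which drives myogenic commitment, rose by 0.40 ± 0.09, while Des, the muscle intermediate filament desmin, fell by 0.44 ± 0.11 and Tcf4 by 0.30. The lower count was 1 without control ZT20 replicate 1, 2 or 3 or control ZT0 replicate 1, 2 or 4.

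One library stood apart. Control ZT20 replicate 2 had Cdh5, an endothelial cadherin, at 9.57 against 6.54 to 7.06 in the other 3 mice of its group and 6.90 to 7.29 at ZT0. Pecam1, also endothelial, was at 9.11 there against 6.41 to 6.79, and the haemoglobin gene Hba-a1 at 11.01 against 7.41 to 9.31. The summed level of the 11 endothelial markers on the array, 5 of them above the limit for testing, was 11.83 in this mouse. It was 10.12 to 10.53 in the other 3. The summed level of the 11 markers of fibro-adipogenic cells and fibroblasts on the array was 13.75 there. It was 13.37 to 13.39 in the other 3 and 13.13 to 13.26 at ZT0. The difference between 3' and 5' probe sets of Actb, a sign of RNA integrity, overlapped between the times (-0.36 to -0.18 at ZT20, -0.31 to -0.16 at ZT0). List counts that this library moved by over 1.5 times are given with and without it, and calls of single genes that ended without it are noted for part of the genes named. In bulk samples fewer cells of a type and less RNA per cell cannot be told apart.

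In mammals the circadian clock is a loop in which CLOCK and BMAL1 (gene Arntl) switch on the Period and Cryptochrome genes, whose proteins then repress them. A second loop runs through the nuclear receptors REV-ERB (genes Nr1d1, Nr1d2) and ROR, and output factors such as TEF, DBP and HLF carry the rhythm to other genes. In tissues outside the brain, feeding and glucocorticoid hormones also act on daily expression: sterol regulatory element binding proteins (SREBP) raise cholesterol synthesis genes, insulin represses FOXO targets, and growth signals raise ribosome biogenesis.

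The group with the largest share of members called was cholesterol synthesis and uptake, so the promoters of the 3 members with the smallest p that had an entry are shown, each from 250 bases before to 50 after the annotated start (RefSeq, GRCm38.p6, printed 5' to 3' on the gene's strand). Capitals mark matches to any of 6 motifs searched on both strands. These were the E-box CACGTG, the D-box TTATGTAA, the ROR element TAGGTCA, the cyclic AMP element TGACGTCA, a sterol element TCACCCCA and a heat shock element GAANNTTC, none of which overlaps another in these windows.
Idi1 (isopentenyl-diphosphate isomerase), chr13:8885356-8885655, plus strand: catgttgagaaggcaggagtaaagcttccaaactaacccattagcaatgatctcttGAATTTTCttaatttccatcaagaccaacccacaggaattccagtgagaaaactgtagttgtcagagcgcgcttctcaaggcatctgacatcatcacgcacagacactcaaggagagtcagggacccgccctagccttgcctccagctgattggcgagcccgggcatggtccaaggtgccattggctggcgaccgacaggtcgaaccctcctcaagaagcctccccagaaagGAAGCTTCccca
Cyp51 (lanosterol demethylase), chr5:4104648-4104947, minus strand: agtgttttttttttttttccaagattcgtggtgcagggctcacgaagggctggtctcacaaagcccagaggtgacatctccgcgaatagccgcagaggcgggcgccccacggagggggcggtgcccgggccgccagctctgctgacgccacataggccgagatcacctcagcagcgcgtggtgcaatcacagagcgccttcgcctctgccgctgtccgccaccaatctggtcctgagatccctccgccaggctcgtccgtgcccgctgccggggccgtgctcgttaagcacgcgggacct
Insig1 (an inhibitor of SREBP processing), chr5:28071162-28071461, plus strand: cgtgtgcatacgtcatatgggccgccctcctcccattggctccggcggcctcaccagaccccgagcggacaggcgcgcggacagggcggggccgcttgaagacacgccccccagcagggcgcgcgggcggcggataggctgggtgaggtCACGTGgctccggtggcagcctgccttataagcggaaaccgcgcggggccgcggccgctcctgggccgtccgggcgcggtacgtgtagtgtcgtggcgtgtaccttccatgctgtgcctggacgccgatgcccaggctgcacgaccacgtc
Idi1 held 2 matches to the heat shock element, at -194 and 39 from the start, and Insig1 held an E-box at -101. The Cyp51 window held no match to these letters. Of all 32544 promoters of this length, 7.17% held the E-box, 7.89% the heat shock element and 1.57% the sterol element. Among the 12 cholesterol genes with a promoter, 4 held the E-box, 2 the heat shock element and 1 the sterol element. Among the 17 clock genes with one, 5 held the E-box, 2 the ROR element, 1 the D-box and 1 the cyclic AMP element. These matches are descriptions of sequence only.

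From ZT20 to ZT0 on the control diet, 880 of 10258 genes changed (adjusted p under 0.05 by limma with Benjamini-Hochberg adjustment, called below), which is 8.58% of those tested. Of these 448 were higher at ZT0 (4.37%) and 432 lower (4.21%). At an unadjusted p under 0.05 there were 2412 genes (23.5%), 1225 higher (11.9%) and 1187 lower (11.6%), against which the unadjusted counts of lists below are to be read. Most changes were small: the median size among the called genes was 0.49 on the log2 scale, 288 exceeded 1.5-fold and 35 exceeded 2-fold, of which 13 were higher and 22 lower. Without control ZT20 replicate 2 the count was 505, and without control ZT0 replicate 4 it was 573. Groups that did not overlap were found for 1360 genes (13.3%), and 335 called genes without overlap were higher (3.27%) and 349 lower (3.4%). Of the other 4 h steps of the control day, ZT0 to ZT4 had 1182 called genes (11.5%), ZT4 to ZT8 573 (5.59%), ZT8 to ZT12 954 (9.3%), ZT12 to ZT16 982 (9.57%) and ZT16 to ZT20 557 (5.43%). Neighbouring steps share mice.

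**Figure D1:**
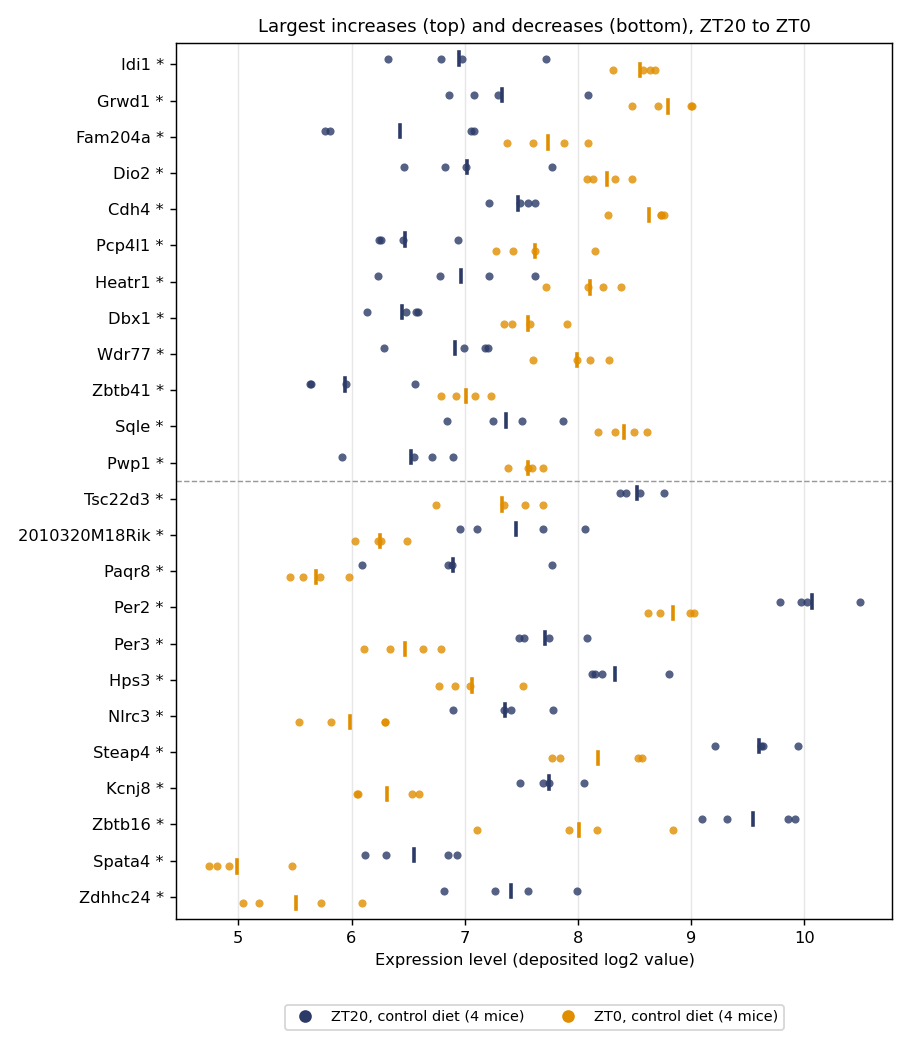
Log2 expression level of the 12 genes with the largest increases and the 12 with the largest decreases among called genes whose groups did not overlap. Each point is 1 mouse (dark, ZT20; orange, ZT0), short bars are group means, and the dashed line parts increases from decreases. The groups do not overlap for any of the 24 genes, since they were chosen so. Zdhhc24 shows the widest shift, from a mean of 7.41 to 5.51.

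The largest increase was that of Idi1, the isomerase of the cholesterol and isoprenoid pathway whose promoter is shown above. Its levels were 6.97, 6.32, 6.79 and 7.72 in ZT20 replicates 1 to 4 and 8.68, 8.31, 8.57 and 8.64 at ZT0. The ZT0 mice lay close together and above every ZT20 mouse, of which replicate 4 was the highest. The difference was 1.60 ± 0.23, or 3.03-fold (adjusted p = 3.37e-05). Sqle, squalene epoxidase, measured 7.50, 6.84, 7.25 and 7.87 at ZT20 and 8.50, 8.18, 8.33 and 8.61 at ZT0, a rise of 1.04 ± 0.22. Here too replicate 4 was the highest and replicate 2 the lowest of the ZT20 mice.

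Grwd1, a WD-repeat protein that associates with pre-ribosomes, rose by 1.47 ± 0.37, from 7.29, 7.08, 6.86 and 8.09 to between 8.48 and 9.01 in the 4 ZT0 mice. Heatr1, part of the machinery that processes the small subunit RNA, rose by 1.14 ± 0.27, from 7.21, 6.78, 6.24 and 7.62 to 8.22, 7.72, 8.38 and 8.09. Pwp1, a WD-repeat protein needed for ribosomal RNA transcription, rose by 1.03 ± 0.19. For Heatr1 the lowest ZT0 mouse lay just above the highest ZT20 mouse, and for Grwd1 ZT20 replicate 4 stood above the other 3. Wdr77, the partner of the arginine methyltransferase PRMT5, rose by 1.08 ± 0.19.

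Dio2, the deiodinase that activates thyroid hormone, measured 7.01, 6.47, 6.82 and 7.77 at ZT20 and 8.32, 8.08, 8.13 and 8.48 at ZT0, a rise of 1.24 ± 0.22. Cdh4 (R-cadherin) rose by 1.15 ± 0.30, Pcp4l1 by 1.14 ± 0.29, Dbx1, a homeobox factor, by 1.12 ± 0.25 and Zbtb41, a zinc finger protein, by 1.06 ± 0.21. Pcp4l1 lost its call without control ZT0 replicate 4. Fam204a rose by 1.31 ± 0.24 on its brightest probe set, but its other 2 probe sets differed by -0.01 and 0.45.

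Among the decreases, Zdhhc24, a member of the palmitoyltransferase family, fell most on its brightest probe set, from 7.55, 7.26, 7.99 and 6.82 to 5.19, 6.09, 5.73 and 5.04 (difference -1.89 ± 0.33, adjusted p = 3.03e-04). A second Zdhhc24 probe set differed by 0.02, so the probe sets of this gene disagree. The same holds for Hps3, part of a complex that builds lysosome-related organelles, which fell by 1.26 ± 0.19 on its brightest probe set while the other differed by 0.01. Spata4 fell by 1.56 ± 0.31, Nlrc3, an NLR family protein that dampens innate immune signalling, by 1.37 ± 0.29, and Paqr8, a membrane progesterone receptor, by 1.22 ± 0.27. The second Nlrc3 probe set differed by -0.07, and the other 3 of Paqr8 by -0.04 to 0.07. The uncharacterised transcript 2010320M18Rik fell by 1.20 ± 0.23. Over the 24 genes, 17 had other probe sets, and 22 of those 28 probe sets differed in the same direction.

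Kcnj8, a potassium channel subunit that also marks pericytes, measured 7.75, 8.05, 7.69 and 7.48 at ZT20 and 6.60, 6.54, 6.06 and 6.05 at ZT0. It fell by 1.43 ± 0.32. It was the only called gene of the 7 pericyte and smooth muscle markers tested (14.3%, against 4.21% lower among all genes). Of the 7 markers, 3 differed upward and 4 downward. The summed level of the 8 on the array spanned 12.49 to 12.83 at ZT20 and 12.45 to 12.70 at ZT0. Rgs5, another pericyte marker, was at 11.50, 11.08, 10.85 and 10.45 at ZT20 and at 10.76, 9.99, 10.24 and 10.05 at ZT0, with overlapping groups. The part of pericyte RNA in the Kcnj8 result was not tested.

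Of the 21 clock genes tested, 1 was higher and 6 were lower at ZT0, against 4.37% and 4.21% of all genes. Per2 and Per3, the repressors of the loop, fell the most. Per2 measured 10.49, 9.97, 9.78 and 10.02 at ZT20 and 8.72, 9.02, 8.62 and 8.99 at ZT0. Every ZT0 mouse lay below every ZT20 mouse. The difference of -1.23 ± 0.16, or a 2.34-fold fall, had an adjusted p of 9.22e-06, and a second Per2 probe set differed by -0.66. Per3 went from 8.08, 7.48, 7.74 and 7.52 to 6.79, 6.34, 6.11 and 6.63, a difference of -1.24 ± 0.27 (adjusted p = 0.00319). With the mean over all 5 Per3 probe sets the difference was -0.44 and kept its call. Per1 was at 9.62, 9.39, 9.66 and 9.42 and then at 9.42, 8.93, 9.22 and 9.13, and its difference of -0.34 ± 0.14 did not pass (adjusted p = 0.107).

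Nr1d2 (REV-ERB beta), a repressor of Arntl, was the clock gene that rose. It measured 8.30, 8.19, 8.23 and 8.98 at ZT20 and 9.10, 8.90, 8.98 and 9.08 at ZT0. Replicate 4 at ZT20 already stood at the level of the ZT0 mice, and the groups overlapped through that mouse alone. The rise was 0.59 ± 0.13 (adjusted p = 0.00407, 1.04e-04 to 0.0736 over 16 alternatives), and it missed the threshold only when the fit held the 8 compared arrays alone. Tef, a clock output factor, fell by 0.42 ± 0.10, from 8.43, 8.20, 8.31 and 8.35 to 8.10, 7.74, 7.74 and 8.00, and missed it in the same alternative only (adjusted p = 0.0727, range 6.40e-04 to 0.0727).

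Usp2, a deubiquitinase under clock control, fell by 0.41 ± 0.08, from 9.91, 9.71, 9.99 and 10.03 to 9.40, 9.60, 9.47 and 9.52. Csnk1e, a kinase that phosphorylates the Period proteins, fell by 0.41 ± 0.08, from 9.47, 9.47, 9.30 and 9.41 to 9.10, 8.95, 8.86 and 9.07. Both kept their call in each of 16 alternatives. Wee1, a cell cycle kinase with clock-controlled transcription, fell by 0.82 ± 0.26 with overlapping groups and kept its call in 8 of 16. It missed the threshold without control ZT20 replicate 1, 2 or 3 or control ZT0 replicate 2 or 4. The positive arm of the loop showed no called difference: Arntl differed by 0.13 ± 0.33, Clock by 0.15 ± 0.18 and Npas2 by -0.07 ± 0.10. Arntl spread widely at ZT20, from 7.94 to 9.20, so a change of moderate size was not detectable with these arrays. With the mean of all probe sets Clock differed by 0.40 and passed (adjusted p = 0.0224), and Rora by -0.19 (adjusted p = 0.0362), while the other 15 alternatives gave no call for either. Cry1, Cry2, Rora, Dbp, Hlf, Nfil3, Bhlhe40, Bhlhe41, Ciart and Csnk1d also missed the threshold, with differences between -0.33 (Cry2) and 0.10 (Cry1).

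**Figure D2:**
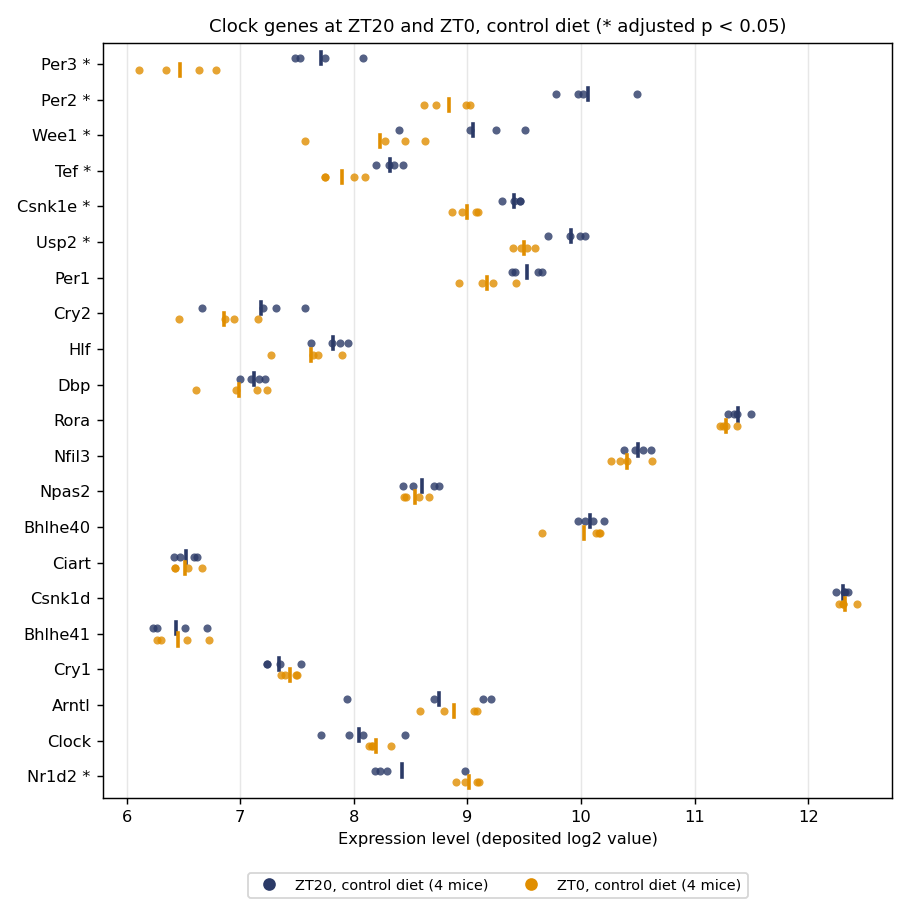
Log2 expression level of the 21 clock genes tested, ordered by their difference, with 1 point per mouse (dark, ZT20; orange, ZT0) and bars at the group means. Asterisks mark an adjusted p under 0.05. The ZT20 and ZT0 values of Per2 and Per3 do not overlap, whereas those of Arntl, Clock and Cry1 do.

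Part of the cholesterol list rose. Of 16 tested, 7 were called higher at ZT0 and none lower (8 higher and none lower at an unadjusted p under 0.05), against 4.37% higher among all genes. Their median difference was 0.39, against -0.000235 over all 10258 genes. Cyp51 measured 8.38, 8.29, 8.50 and 9.26 at ZT20 and 9.49, 9.66, 9.55 and 9.62 at ZT0, a rise of 0.97 ± 0.15 (adjusted p = 5.73e-05). Insig1 measured 10.36, 10.05, 10.33 and 10.64 and then 10.96, 10.89, 10.87 and 10.97, a rise of 0.58 ± 0.10. In both, the ZT0 mice were tightly grouped above all ZT20 mice, and ZT20 replicate 4 was nearest to them. Nsdhl, a sterol dehydrogenase, rose by 0.92 ± 0.22, Fdps, farnesyl diphosphate synthase, by 0.69 ± 0.19 and Srebf2, the transcription factor that drives these genes, by 0.52 ± 0.13.

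The remaining 9 did not pass, and did not all lean the same way. Sc5d differed by 0.55 ± 0.25, Hsd17b7 by 0.26 ± 0.18, Fdft1 by 0.24 ± 0.18 and Dhcr7 by -0.22 ± 0.20, while Mvk, Ebp, Tm7sf2 and Msmo1 lay between -0.06 and 0.08 and Stard4 at 0.20. Without control ZT20 replicate 2, the lowest ZT20 mouse for several of these genes, 5 of the 16 were called and Idi1 rose by 1.39 ± 0.24. Over the 8 single-mouse omissions the count lay between 5 and 7.

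**Figure D3:**
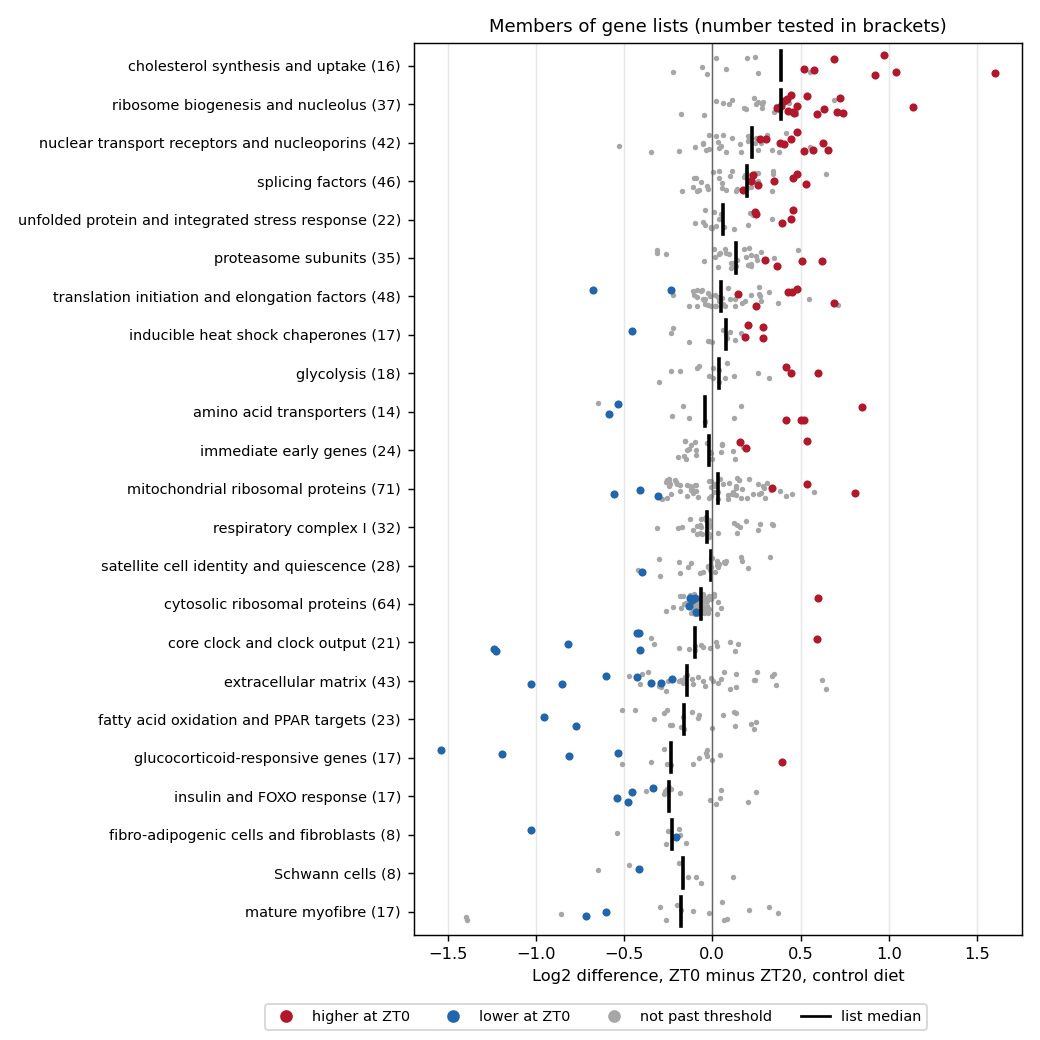
Log2 difference, ZT0 minus ZT20, of each tested member of 23 gene lists, with the number tested in brackets. Red and blue points passed the threshold as higher or lower, grey points did not, and black ticks are list medians; the medians of cholesterol and ribosome biogenesis genes lie at 0.39, to the right of all others shown.

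Ribosome biogenesis had the most called increases of the lists. Of 37 genes tested, 16 rose and none fell by the threshold (43.2%, against 4.37% higher among all genes; 25 higher and none lower at an unadjusted p under 0.05), with a median of 0.39 and 35 differences above 0. Ddx18, a nucleolar helicase, measured 9.42, 9.08, 9.08 and 9.59 at ZT20 and 9.77, 9.88, 9.77 and 9.89 at ZT0 (0.53 ± 0.11). Nop56, a core protein of the RNA methylation particles, measured 9.50, 9.42, 9.30 and 9.66 and then 10.06, 9.91, 9.99 and 9.85 (0.48 ± 0.11). Utp15, which acts in small subunit processing, rose by 0.63 ± 0.13. The others called were Wdr43, Dkc1 (dyskerin), Ltv1, Fbl (fibrillarin), Nop16, Ncl (nucleolin), Nop14, Utp4, Polr1a (the largest subunit of RNA polymerase I), Ddx56, Bop1, Noc3l and Heatr1, between 0.36 (Nop14) and 1.14 (Heatr1).

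This count leaned on single mice: it was 6 without control ZT20 replicate 2, 7 without control ZT0 replicate 4, 9 without control ZT20 replicate 3 and 10 without control ZT0 replicate 3, and reached 20 in the omission that raised it most. Of 64 cytosolic ribosomal proteins, 1 rose (Rps15a, 0.60 ± 0.15) and 5 fell, by 0.09 to 0.13 (Rps7 and Rps23 among them, Rps23 not without control ZT20 replicate 2), with 58 differences below 0 and a median of -0.06. The shares were 1.56% higher and 7.81% lower, against 4.37% and 4.21% of all genes. Rpl10 measured 12.34, 12.30, 12.32 and 12.35 and then 12.27, 12.21, 12.16 and 12.20, a difference of -0.12 ± 0.03. The lower count was 2 or 3 without any one of control ZT20 replicates 1 to 4 or control ZT0 replicate 3.

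Of 42 nuclear transport receptors and nucleoporins, which move RNA and proteins through the nuclear pore, 10 were called higher and none lower (23.8%, against 4.37% higher among all genes; 18 higher and none lower at an unadjusted p under 0.05), with a median of 0.22. Kpna2, an importin alpha, went from 8.59 ± 0.10 (SD, n = 4) to 9.25 ± 0.20 (SD, n = 4), a difference of 0.66 ± 0.13 (SE). Nup50, a nucleoporin, went from 8.83, 8.86, 8.67 and 8.92 to 9.21, 9.30, 9.26 and 9.42 (0.48 ± 0.10). Neither gene's groups overlapped. Ipo7, an importin that carries ribosomal proteins, rose by 0.45 ± 0.09, Nup62 by 0.40 ± 0.08 and Xpo1, the main nuclear exporter, by 0.57 ± 0.18, and Nxf1, Kpnb1, Ipo5, Ranbp1 and Nup153 were also called. The count was 6 without control ZT20 replicate 2.

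Of 46 splicing factors, 8 were called higher and none lower (17.4%, against 4.37% among all genes; 20 higher and none lower at an unadjusted p under 0.05), with a median of 0.19. Srsf6, a serine- and arginine-rich splicing factor, measured 10.21, 10.21, 10.10 and 10.26 at ZT20 and 10.81, 10.54, 10.69 and 10.65 at ZT0, a rise of 0.48 ± 0.07 with an adjusted p of 1.75e-05. Hnrnpa0 rose by 0.53 ± 0.12, Srsf1 by 0.46 ± 0.12, Srsf10 by 0.26 ± 0.06 and Srsf3 by 0.23 ± 0.06. The count was 4 without control ZT20 replicate 2 and 5 without control ZT0 replicate 3. Of 48 translation factors, 6 rose and 2 fell (12.5% and 4.17%, against 4.37% and 4.21% of all genes), so the lower share was near the background. Eif4e2, a cap-binding protein, rose by 0.69 ± 0.17 and Eif6, which keeps the ribosomal subunits apart, by 0.43 ± 0.10, while Eif4e3, another cap-binding protein, fell by 0.67 ± 0.11 and Eif3h by 0.24 ± 0.06. The higher count was 3 without control ZT0 replicate 4 and the lower count 1 without control ZT20 replicate 4.

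Of 22 genes of the unfolded protein and integrated stress responses, 5 rose and none fell, with 16 differences above 0 and 6 below (22.7% higher, against 4.37%; 7 higher and none lower at an unadjusted p under 0.05). Calr (calreticulin) went from 10.30, 10.34, 10.17 and 10.29 to 10.60, 10.60, 10.76 and 10.73, Dnajb9 rose by 0.45 ± 0.10, Hspa5 (BiP) by 0.25 ± 0.06 and the transcription factor Atf4 by 0.24 ± 0.06. Sesn2 rose by 0.45 ± 0.13, a call lost without control ZT20 replicate 2 (adjusted p = 0.108, the highest over 16 alternatives) or control ZT0 replicate 1 or 3. Among 17 heat shock genes Hsp90aa1 (0.28 ± 0.06), Hspa4 (0.29 ± 0.08), Dnaja1 (0.18 ± 0.06) and Dnajb4 (0.20 ± 0.07) rose and the small chaperone Cryab fell by 0.45 ± 0.11. That is 23.5% higher and 5.88% lower, against 4.37% and 4.21% of all genes. Without control ZT20 replicate 2 the calls of Hspa4 and Dnaja1 were among those lost. The count of heat shock genes called higher was 1 without control ZT20 replicate 2, and 2 without control ZT20 replicate 3 or control ZT0 replicate 1, 2 or 4. Of 35 proteasome subunits 4 rose (11.4%, against 4.37% higher among all genes), Psmc4 by 0.51 ± 0.09 and Psma1 by 0.62 ± 0.13, with 31 differences above 0. That count was 2 without control ZT0 replicate 4.

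Of 18 glycolysis genes, 3 rose (16.7%, against 4.37% higher among all genes). Hk2, the hexokinase of the first step, went from 7.89, 8.03, 8.05 and 8.18 to 8.81, 8.41, 8.59 and 8.72 (0.60 ± 0.11), the glucose transporter Slc2a1 rose by 0.42 ± 0.09 and Pfkl by 0.45 ± 0.13. The Pfkl call was lost without control ZT20 replicate 2 (adjusted p = 0.136, the highest over 16 alternatives), control ZT20 replicate 3 or control ZT0 replicate 1, 3 or 4. Of 23 fatty acid oxidation genes and PPAR targets, 2 fell and none rose (8.7% lower, against 4.21% among all genes). Counted in either direction, the share was near the 8.58% of all genes. At an unadjusted p under 0.05 by limma, 6 were lower and 1 higher. Acadl, a mitochondrial acyl-CoA dehydrogenase, went from 8.56, 8.87, 8.74 and 8.54 to 7.76, 8.20, 7.80 and 7.85 (-0.77 ± 0.15) and the coactivator Ppargc1b from 6.96, 7.00, 7.12 and 7.39 to 6.24, 6.44, 6.09 and 5.90 (-0.95 ± 0.22). The groups of these 3 genes with values did not overlap. The oxidation count was 5 without control ZT20 replicate 2 and 4 without control ZT0 replicate 2. Respiratory complex I had no called gene among 32 by limma, against 8.58% of all genes. At an unadjusted p under 0.05, 3 were higher and 1 lower, against 11.9% and 11.6% of all genes.

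Glucocorticoids are hormones whose level in mice peaks around the start of the night. Of 17 genes known to respond to them, 4 fell and 1 rose (23.5% lower, against 4.21% among all genes), with a median of -0.23 and 15 differences below 0. Tsc22d3 (GILZ), an anti-inflammatory target of the receptor, measured 8.55, 8.76, 8.37 and 8.42 at ZT20 and 7.69, 7.53, 6.75 and 7.35 at ZT0, a difference of -1.19 ± 0.18 (adjusted p = 4.38e-05). Zbtb16, a zinc finger factor induced by these hormones, measured 9.31, 9.85, 9.91 and 9.09 and then 8.84, 7.11, 8.17 and 7.92, a difference of -1.54 ± 0.26. Both separated fully, although Zbtb16 spread widely among the ZT0 mice. Cebpd went from 10.37, 10.40, 10.51 and 10.37 to 10.04, 9.96, 9.66 and 9.86 (-0.53 ± 0.08) and Sult1a1 fell by 0.81 ± 0.27 with an adjusted p of 0.049.

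The kinase gene Sgk1 went the other way, from 11.13, 11.02, 11.19 and 10.90 to 11.47, 11.41, 11.54 and 11.38, a rise of 0.39 ± 0.06. Fkbp5 (-0.23 ± 0.18), Klf9 (adjusted p = 0.996), Ddit4 (-0.26 ± 0.23) and Dusp1 (-0.03 ± 0.06), further targets of the receptor, were not called, nor was Nr3c1, the receptor itself (-0.07 ± 0.14).

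Of 17 genes of the insulin and FOXO response, 4 fell and none rose (23.5% lower, against 4.21% among all genes). At an unadjusted p under 0.05 by limma, 6 were lower and none higher. The list median was -0.24. Foxo3, a FOXO factor, measured 10.87, 10.97, 11.07 and 10.73 at ZT20 and 10.50, 10.36, 10.41 and 10.46 at ZT0 (-0.47 ± 0.07, adjusted p = 2.82e-05). Gadd45a, a growth arrest gene, went from 10.77, 10.61, 10.88 and 10.94 to 10.43, 10.10, 10.08 and 10.42 (-0.54 ± 0.09). All ZT0 mice lay below all ZT20 mice in both genes. Pik3r1, the regulatory subunit of PI3-kinase, fell by 0.34 ± 0.08 and Txnip, an inhibitor of glucose uptake, by 0.45 ± 0.12, the latter losing its call without control ZT20 replicate 2 or control ZT0 replicate 1. Foxo1, Foxo4, Insr and Igf1r lay between -0.24 and -0.37 and did not pass.

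Amino acid transporters moved in both directions, 4 up and 2 down of 14 (28.6% and 14.3%, against 4.37% and 4.21% of all genes). Slc6a6, the taurine transporter, was among the most precise changes, from 10.01, 9.98, 9.96 and 10.06 to 9.46, 9.32, 9.38 and 9.52 (-0.58 ± 0.08, adjusted p = 9.22e-06). The leucine transporter Slc43a2 fell by 0.54 ± 0.13. Slc7a1, the cationic transporter, rose by 0.85 ± 0.23, Slc1a5 by 0.52 ± 0.16, Slc7a5 by 0.50 ± 0.16 and Slc7a6 by 0.42 ± 0.12. None of these 4 increases kept its call without control ZT20 replicate 2, without control ZT20 replicate 3 or without control ZT0 replicate 4, and the count was 2 without control ZT0 replicate 1 and 1 without replicate 3.

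Matrix genes called at this step were all lower at ZT0. Of 43 extracellular matrix genes tested, 7 fell and none rose (16.3% lower, against 4.21% among all genes). At an unadjusted p under 0.05 by limma, 12 were lower and 4 higher. The list median was -0.14. Lama2, the laminin chain of the muscle basement membrane, measured 10.40, 10.52, 10.46 and 10.29 at ZT20 and 10.00, 9.86, 9.68 and 9.73 at ZT0, a difference of -0.60 ± 0.07 with an adjusted p of 5.20e-06. Without control ZT20 replicate 2 it fell by 0.57 ± 0.08, and it was then the only matrix gene called. Nid1 (-0.85 ± 0.22), Sparc (-0.23 ± 0.06), Col6a1 (-0.29 ± 0.08), Col5a2 (-0.35 ± 0.10), Col6a3 (-1.03 ± 0.31) and Bgn (-0.43 ± 0.13) were called with all 8 mice. The count was 3 without control ZT0 replicate 1 or 4 and 4 without control ZT0 replicate 3.

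Markers of other cells lay beside these matrix results. All 8 fibro-adipogenic and fibroblast markers tested were lower on average at ZT0 with all 8 mice. Of these, 2 were called (Gsn and Col6a3, 25% against 4.21% lower among all genes). Without control ZT20 replicate 2, Scara5 differed by 0.20, Col1a1 by 0.06 and Mfap5 by 0.007, while the other markers tested stayed lower. Of the 11 on the array, 3 (Pdgfra, Lum, Pi16) were below the limit for testing. The summed level of all 11 did not overlap between the times, 13.37 to 13.75 against 13.13 to 13.26. None of the 8 was called without control ZT20 replicate 2 or control ZT0 replicate 3, and 1 was called without control ZT20 replicate 1 or control ZT0 replicate 1 or 4. All 8 Schwann cell markers on the array were tested. Their summed level was 11.59 to 11.89 at ZT20 and 11.33 to 11.49 at ZT0. Pmp22, a myelin protein, was the 1 called (-0.42 ± 0.09), which is 12.5% against 4.21% lower among all genes. For the 22 myofibre markers on the array the summed level was 11.64 to 11.94 and 11.39 to 11.80. Of the 17 tested, Tnnt3 and Actn3 were called lower (11.8%, against 4.21% among all genes). That count was 4 without control ZT0 replicate 2 and 1 without control ZT20 replicate 2. Myh2, Myh4, Myl1, Tnnc1 and Ttn were below the limit. The 5 endothelial markers above the limit were all lower on average at ZT0, and Kdr and Tie1 were under it. Egfl7 alone was called (20%, against 4.21% lower among all genes), but not without control ZT20 replicate 2 or control ZT0 replicate 1 or 4. Each share of these marker lists rests on 1 or 2 genes. Without control ZT20 replicate 2, Cdh5 differed by 0.22 and Pecam1 by -0.007, while Egfl7, Flt1 and Tek stayed lower. The 15 immune markers on the array summed to 9.95 to 10.92 at ZT20 and 10.03 to 10.22 at ZT0. The 10.92 was that of control ZT20 replicate 2. The other ZT20 mice, at 9.95 to 10.00, lay below all ZT0 mice. Of the 15 markers, 4 were above the limit and 11, Ptprc among them, under it. The part of other cells in the matrix result was not tested.

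Smaller lists are given by their counts, to be read against 4.37% higher and 4.21% lower among all genes. The shares were 15.4% lower for NF-kappa B and for interferon genes and 12.5% higher for immediate early genes. For cell cycle genes they were 8.33% higher and 4.17% lower, the latter near the background. Each share rests on 1 to 3 genes. Tnfaip3 (-0.56 ± 0.13) and Birc3 (-0.50 ± 0.13), feedback genes of NF-kappa B, fell among 13 such genes, the latter not called without control ZT0 replicate 2. That list had 6 differences above 0 and 7 below. Icam1, also of that list, differed by 0.49 and was not called. Without control ZT20 replicate 2 it differed by 0.71 and was called higher. Ifih1 (-0.82 ± 0.18) and Ifit3 (-0.61 ± 0.15) fell among 13 interferon genes, the latter not called without control ZT20 replicate 2. Pcna, the replication clamp, rose by 0.34 ± 0.06 among 24 cell cycle genes, and Mcm7 by 0.78 ± 0.20. Wee1, given above, was the 1 cell cycle gene called lower. The count of 2 higher was 1, with Mcm7 lost, without control ZT20 replicate 2 or 3 or control ZT0 replicate 3. Fosl1 rose by 0.53 ± 0.13 among 24 immediate early genes, while the calls of Myc (0.19 ± 0.05) and Klf4 (0.16 ± 0.05) were lost without control ZT20 replicate 2, where the differences were 0.16 and 0.17. The count of 3 was 1 without control ZT20 replicate 2 or 3 or control ZT0 replicate 4. Sphk2, a sphingosine kinase, fell by 0.68 ± 0.18, and lost its call without replicate 3 of either time.

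Where a gene has several probe sets, averaging them in place of taking the brightest reduced some of these differences. Acadl then differed by -0.37, Csnk1e by -0.26, Des by -0.29, Grwd1 by 0.92, Nlrc3 by -0.72, Hps3 by -0.62, Zbtb41 by 0.63 and Sphk2 by -0.36, all still called. Pik3r1 (-0.16), Cryab (-0.31), Tnfaip3 (-0.40), Eif4e2 (0.21) and Eif6 (0.22) lost their calls, as did Rpl10 (-0.08), Slc7a1 (0.54), Egfl7 (-0.27) and Gsn (-0.15).

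The same step on the high-fat diet had 572 called genes (5.58%), 246 of them higher (2.4%) and 326 lower (3.18%). Of the 880 genes called on the control diet, 722 differed in the same direction on the high-fat diet, and 147 were called in that direction in both, which is 16.7% of the control calls and 25.7% of the high-fat calls. One gene was called in opposite directions. Across all genes the differences correlated with r = 0.363, a description in which both arms share their collection days. The diet difference in the change was tested directly, and 28 genes passed (0.273%, with 1310 at an unadjusted p under 0.05), 20 of them among the 880. No gene passed when only the 16 compared arrays were fitted (1191 at an unadjusted p under 0.05), and omitting single mice gave between 9 and 44.

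**Figure D4:**
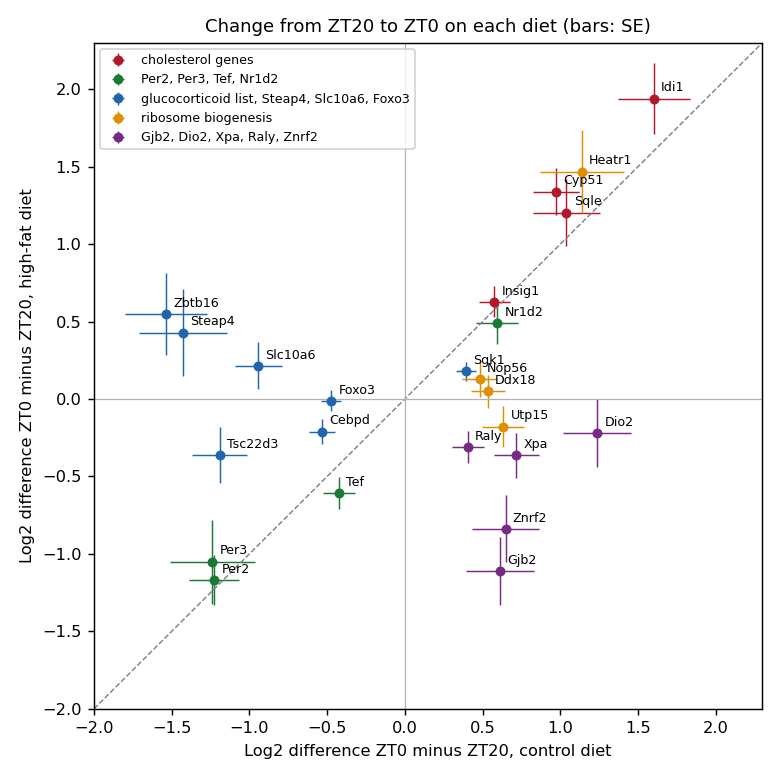
Log2 difference, ZT0 minus ZT20, on the control diet (horizontal) and on the high-fat diet (vertical) for genes named in the text, with SE bars and colours by group. The dashed line marks equal change: Per2, Per3, Idi1 and Insig1 lie near it, Zbtb16, Steap4 and Slc10a6 lie left of it near or above 0 on the vertical axis, and Gjb2 and Znrf2 lie below it.

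None of the 21 clock and 16 cholesterol genes passed the test of the diet difference, which 0.273% of all genes passed. With so small a share, no call in lists of this size is near the background. Per2 on the high-fat diet went from 10.16, 10.08, 10.10 and 10.19 to 9.18, 8.76, 8.87 and 9.04, a difference of -1.17 ± 0.16, and its change differed between diets by 0.06 ± 0.23. Per3 fell by 1.05 ± 0.27 and Tef by 0.61 ± 0.10, and Nr1d2 rose by 0.49 ± 0.13. Idi1 rose by 1.94 ± 0.23 there, from 7.37, 7.42, 6.92 and 7.56 to 9.39, 9.49, 8.78 and 9.36, and its change differed between diets by 0.34 ± 0.33 (adjusted p = 0.729). Of the 16 cholesterol genes, 10 were called higher and none lower in the high-fat arm, against 2.4% and 3.18% of all genes. Their median was 0.61. A missed threshold does not show that the changes were equal.

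Ribosome biogenesis had 6 of 37 called higher in the high-fat arm, the median being 0.14, nuclear transport 3 of 42 with 0.08 and splicing 5 higher and 2 lower of 46 with 0.09. In that arm 2.4% of all genes were called higher and 3.18% lower, both less than on the control diet. The lower count of splicing factors was near that background. Whether these lists as a whole differed between diets was not tested. Utp15 is one that did: it rose by 0.63 ± 0.13 on the control diet and differed by -0.18 ± 0.13 on the high-fat diet (diet difference -0.81 ± 0.19, adjusted p = 0.0446).

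Zbtb16, of the glucocorticoid list, shared the smallest adjusted p for a diet difference with Gjb2. Zbtb16 on the high-fat diet measured 8.14, 8.39, 8.12 and 7.63 at ZT20 and 8.59, 8.24, 8.66 and 8.99 at ZT0, so the ZT20 mice of this diet were already below all 4 control ZT20 mice. Its change differed between diets by 2.08 ± 0.37 (adjusted p = 0.00957, 8.73e-04 to 0.107 over 24 alternatives). Tsc22d3 showed the same layout, at 7.27, 7.39, 7.26 and 7.29 in the high-fat ZT20 mice against 8.37 to 8.76 on the control diet. It then lay at 6.85, 6.76, 7.15 and 7.01, but its diet difference of 0.83 ± 0.25 did not pass (adjusted p = 0.139). Steap4, a metalloreductase, fell by 1.43 ± 0.28 on the control diet, from 9.62, 9.64, 9.94 and 9.21 to 8.53, 8.56, 7.77 and 7.84. On the high-fat diet it measured 8.87, 9.08, 8.63 and 8.36 and then 9.99, 8.82, 8.91 and 8.93 (diet difference 1.86 ± 0.40).

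Slc10a6, a steroid sulfate transporter, fell by 0.94 ± 0.15 on the control diet, from 10.29, 10.46, 10.90 and 10.38 to 9.82, 9.26, 9.56 and 9.61, and differed by 0.21 ± 0.15 on the high-fat diet (diet difference 1.16 ± 0.21, adjusted p = 0.0112). Foxo3 differed by -0.01 ± 0.07 on the high-fat diet (diet difference 0.46 ± 0.10). In the other direction, Gjb2, a connexin, fell by 1.11 ± 0.22 on the high-fat diet, from 7.52, 7.09, 7.31 and 7.45 to 6.21, 5.81, 6.59 and 6.31. On the control diet it measured 6.43, 5.81, 5.97 and 6.47 and then 6.61, 6.62, 6.10 and 7.81, which did not pass (diet difference -1.72 ± 0.31, adjusted p = 0.00957). Dio2 (-1.46 ± 0.31), the DNA repair gene Xpa (-1.08 ± 0.21), Raly, an RNA-binding protein (-0.72 ± 0.15), and the ubiquitin ligase gene Znrf2 (-1.49 ± 0.30) also differed between diets. The Raly and Znrf2 calls were lost with the mean over all probe sets (adjusted p = 0.159 and 0.287, the highest over 24 alternatives of each). Raly also missed the threshold without control ZT0 replicate 3, high-fat ZT0 replicate 1 or high-fat ZT20 replicate 4, and Znrf2 without high-fat ZT0 replicate 4.

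**Figure D5:**
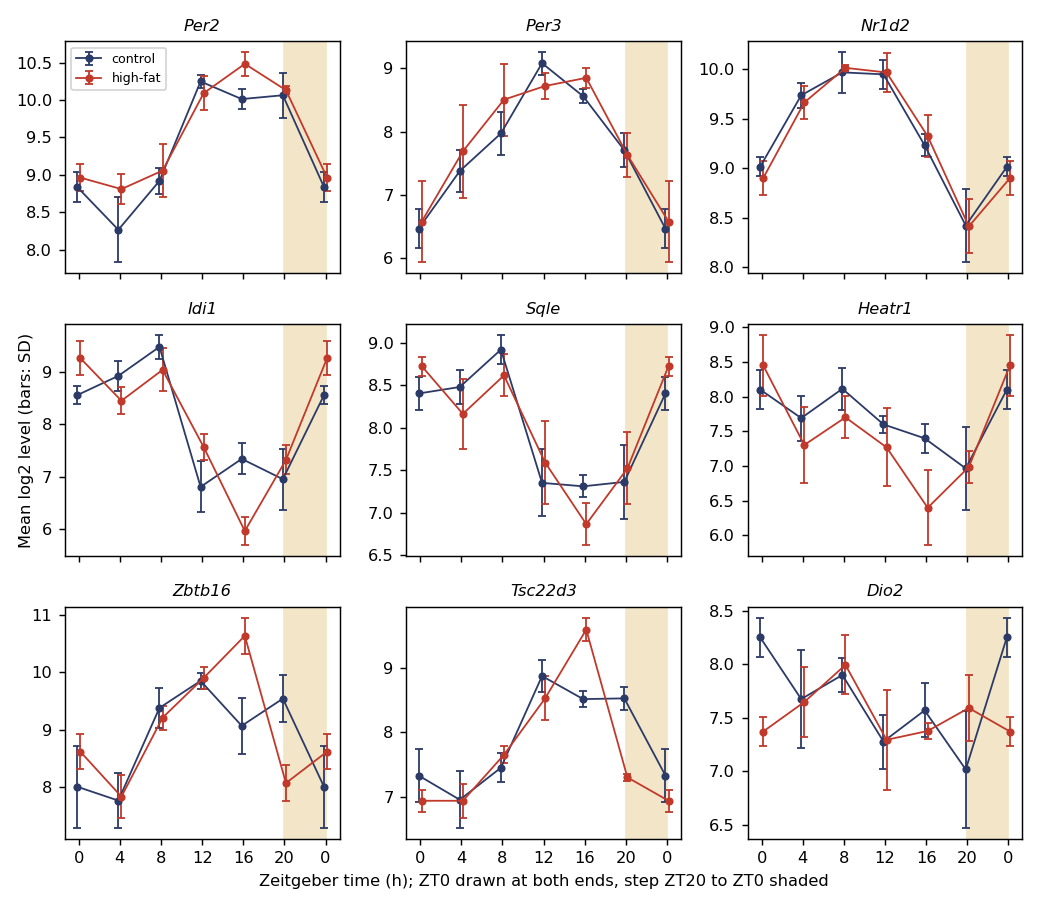
Mean log2 level with SD bars at the 6 zeitgeber times for 9 genes on the control (dark) and high-fat (red) diet, with ZT0 drawn at both ends and the step from ZT20 to ZT0 shaded. Groups hold 4 mice, except 3 for high-fat ZT16. Per2 and Per3 fall and Nr1d2 rises across the shaded step on both diets, while Zbtb16 and Tsc22d3 start it from a lower level on the high-fat diet.

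Set in the whole day, the step held a turning point for some genes and part of a slope for others. Nr1d2 on the control diet was lowest at ZT20 (8.42 ± 0.37, SD, n = 4) and rose at this step and at the next one, by 0.72 from ZT0 to ZT4, to 9.97 ± 0.21 at ZT8. Per2 held near 10 from ZT12 to ZT20 (10.25 ± 0.08, 10.01 ± 0.13 and 10.06 ± 0.30) and fell by a further 0.57 from ZT0 to ZT4, where it reached its lowest mean, 8.27 ± 0.44. Per3 was lowest at ZT0 (6.47 ± 0.30) and rose by 0.91 in the step after it. Idi1 stood between 8.55 and 9.47 from ZT0 to ZT8 and between 6.80 and 7.34 from ZT12 to ZT20, and it fell by 2.67 between ZT8 and ZT12. Dio2 differed by -0.58 in the step after its rise, which did not pass (adjusted p = 0.081).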

How the data were processed

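RNA of satellite cells was hybridised to 1 array per mouse after amplification of 25 ng of RNA through 17 cycles, per the labels' protocols. The authors deposited log2 expression values per probe set, and their processing notes name RMA, with version and settings not given in the sources used here. Of 45141 probe sets, 28898 carried 1 gene symbol and 15692 none. The probe set with the highest mean stood for a gene, and genes with a mean under the 40th percentile (5.80) were not tested, which left 10258. Limma (version 3.58.1, R 4.3.3) was fitted to the 12 group means of all 47 arrays, with an intensity trend, two-sided tests and Benjamini-Hochberg adjustment over all genes tested at 0.05, and was tested on simulated data. The p-values measure the spread between mice of a group, and the number of arrays limits the precision. Differences near background are compressed.

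Genes named were the 12 largest increases and 12 largest decreases among called genes without overlap, the clock list, up to 4 members of each other list with the smallest p, and the 6 smallest p of the diet difference. Other members are named to complete a list's count and were chosen after their values were seen. Members and lists were chosen with earlier results of these data known. Alternatives changed the arrays fitted, the filter, the trend, array weights, cyclic loess, the probe set, the replicate block and the mice left out.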

Additional observations from a re-analysis of the deposited data

Results flagged for a closer look

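In 14 of 280 groups of 4 mice examined, 1 mouse lay far from the other 3, where chance gives about 1 in 20 groups. Those at ZT20 in control replicate 2 were Igf1 at 8.98 (others 8.69 to 8.73), Tnnt3 at 6.90 (6.07 to 6.16) and Egfl7 at 7.13 (6.71 to 6.78). In control ZT20 replicate 1, Eif1ax was at 9.67 (9.48 to 9.50) and Eed at 8.03 (7.57 to 7.62). In control ZT20 replicate 3, Hps3 was at 8.81 (8.13 to 8.21) and Eif4e3 at 8.64 (8.98 to 9.01), and in replicate 4 Nr1d2 was at 8.98 (8.19 to 8.30). At ZT0, Trp53inp1 was at 8.27 in control replicate 1 (7.85 to 7.90), Cdh4 at 8.27 (8.73 to 8.76) and Bhlhe40 at 9.66 (10.13 to 10.16) in replicate 2, Pik3r1 at 10.07 in replicate 3 (9.90 to 9.91), and Clock at 8.33 (8.13 to 8.16) and Srsf10 at 11.11 (11.02 to 11.03) in replicate 4. The part of these mice in the results was not tested beyond leaving each out.

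The change from ZT20 to ZT0 differed between diets, by limma's interaction term with adjusted p, for 11 of the genes named. High-fat minus control, the log2 difference was -1.46 for Dio2 (adjusted p = 0.0261), 2.08 for Zbtb16 (0.00957), 1.86 for Steap4 (0.0261), 0.46 for Foxo3 (0.0237) and -0.81 for Utp15 (0.0446). It was 1.95 for Col6a3 (0.0380), a collagen chain whose change was -1.03 in control mice and 0.93 in high-fat mice. It was -1.72 for Gjb2 (0.00957), 1.16 for Slc10a6 (0.0112), -1.08 for Xpa (0.0151), -0.72 for Raly (0.0237) and -1.49 for Znrf2 (0.0237).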

How the results depend on the processing

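With only the compared arrays, 411 genes were called on the control diet, 356 on the high-fat diet and 0 for the diet difference (1191 at an unadjusted p under 0.05 by limma, against 1310 with all arrays). The diet difference had 15 calls without a filter on dim genes and 48 with the mean of all probe sets of a gene. Leaving out 1 mouse gave 505 to 884 calls on the control diet, 273 to 498 on the high-fat diet and 9 to 44 for the diet difference. The control count moved by over 1.5 times without control ZT20 replicate 2 (505) or control ZT0 replicate 4 (573). The high-fat count did so without high-fat ZT0 replicate 4 (273), high-fat ZT20 replicate 2 (337) or high-fat ZT20 replicate 3 (307). The diet difference had 9 calls without control ZT0 replicate 4 or control ZT20 replicate 2, 10 without high-fat ZT0 replicate 1, 11 without high-fat ZT20 replicate 4, 12 without high-fat ZT20 replicate 3, 13 without high-fat ZT0 replicate 4, 16 without control ZT20 replicate 3, 17 without control ZT0 replicate 2 and 44 without high-fat ZT0 replicate 3. The cause of these shifts was not tested. Same-numbered mice did not deviate together (correlations of -0.100 to 0.207), so the numbers were not taken as pairs; with the replicate block 788, 481 and 23 genes were called, and Bbc3, Cyc1, Klf4 and Wee1 lost their calls. Over 129 gene results and 2046 alternatives, 1825 kept their side of the threshold, 219 lost the call and 2 gained it (Clock and Rora with the mean of all probe sets). The sign changed in 15 of the 1825, all for 6 clock genes that were not called (Arntl, Npas2, Bhlhe40, Bhlhe41, Ciart, Csnk1d), and in none of the called genes. The number of arrays and signals near background limit what can be seen.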

Other observations

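Some lists had few or no called members at this step. Autophagy and lysosome genes had none of 24 called by limma (1 higher and 1 lower at an unadjusted p under 0.05), and NRF2 antioxidant genes none of 17 (2 higher and none lower). Among all genes 8.58% were called, and 11.9% were higher and 11.6% lower at an unadjusted p under 0.05. In lists of this size few calls would be met at that share, so the absence of calls does not show an absence of change. Among 71 mitochondrial ribosome genes, 3 were higher, Mrps25 (0.81), Mrps7 (0.54) and Mrpl19 (0.34), and 3 lower, Mrps24 (-0.56), Mrpl9 (-0.41) and Mrps36 (-0.31). Each count is 4.23% of the list, which is near the 4.37% higher and 4.21% lower among all genes. None of the 3 lower genes was called without control ZT20 replicate 2 or control ZT0 replicate 1, and Mrpl19 differed by 0.01 with the mean of its probe sets.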
